A study of Homo sapiens with 6 samples.

Results

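The 8 genes described here, SREBF2, INSIG1, HMGCS1, IDI1, FDFT1, SQLE, LSS and DHCR7, encode the transcription factor SREBP2, its retention factor INSIG1 and 6 enzymes of sterol synthesis. They were taken by symbol from the 20802 genes of the panel, and all 8 were found. Their transcripts were counted in MCF10A, a benign cell line of human breast epithelium, with the Ion AmpliSeq Transcriptome kit, which copies 1 short piece of each transcript by PCR and counts the reads of that piece. The 6 libraries are labelled as 2 replicates each of the untransfected line (wt), of a line stably overexpressing eGFP as control (eGFP) and of a line stably overexpressing KCNJ3, which encodes the potassium channel subunit GIRK1 (GIRK1). The study asked what GIRK1 overexpression does to the transcriptome of benign mammary cells. The eGFP and GIRK1 lines share the pIRES2eGFP plasmid, selection with G418 and sorting on eGFP fluorescence, none of which the wt cells went through. MCF10A cells were grown in MEBM medium and harvested before full confluence. Nothing states whether the replicates were separate cultures or separately derived lines, so the p-values below measure only the spread between these libraries, which may be technical.

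Cells build cholesterol from acetyl-CoA through mevalonate, the isoprenoid diphosphates and squalene, and most enzymes of this route are controlled together by SREBP2. When sterols are plentiful, INSIG proteins hold the precursor of SREBP2 in the endoplasmic reticulum. When sterols run low, the precursor is cut and its released part enters the nucleus and activates the genes of synthesis and uptake, INSIG1 and SREBF2 among them. In epithelial cells in culture these transcripts are known to follow the supply of lipids from the medium and the demand of growing cells for membrane.

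KCNJ3 was counted at 217 and 355 RPM (reads scaled to the total of the library) in the GIRK1 libraries and at 0 in eGFP replicates 1 and 2 and in wt replicate 2. The library labelled wt replicate 1 went against its label. It held 48 reads of KCNJ3, or 19.2 RPM, and its 7 basal mammary markers summed to 14.0 RPM, against 7871 to 14353 RPM in the other 5 libraries. Its 7 luminal markers summed to 10615 RPM, against 145 to 554 RPM, with ESR1, TFF1, PGR and KRT19 at 0 in each of the other 5. KRT5, KRT14 and KRT17 were present in those 5 libraries and TP63 was at 0 in all 6. The library labelled wt replicate 1 is therefore shown apart and stands outside the fits given first. Totals ran from 5126930 reads (eGFP replicate 1) to 16040556 reads (wt replicate 2) in the other 5 libraries and came to 2506120 reads in wt replicate 1. The level equal to 3 reads lay between 0.187 and 1.20 RPM. The 95% intervals given below are exact (Clopper-Pearson) and leave out every error but that of counting reads. PCR copies of 1 molecule are counted more than once, so the intervals can be too narrow even for that error.

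Stretches before transcript starts of these genes are shown because 8 genes that share a regulator are compared, and their letters show which known elements lie near the start. Promoters from RefSeq (GRCh38.p14), running from 250 bases before each listed transcript start to 50 bases after it, were found for 6 members, not for FDFT1 and SQLE. HMGCS1 and DHCR7 have 2 listed starts each, and the one whose window holds a CCAAT box is printed, which for DHCR7 is a start inside the gene span given below. Both strands were searched for the sterol regulatory element TCACNCCAC, which SREBPs bind, and for the CCAAT box, which NF-Y binds and which often stands beside SREBP sites. The sterol element occurred in 1 of 6 members, SREBF2, and in 1.39% of all 27305 genes with a promoter. The CCAAT box occurred in 6 of 6 members, against 39.7% of those genes. Letters outside annotated exons of the gene are printed in the direction of transcription, with the sterol element and the CCAAT box (ATTGG when read from the opposite strand) in capitals. IDI1 had no stretch of this kind in the part considered, which ran from 180 to 31 bases before the start, and none is printed for it. These matches are letters in a window, and binding was not measured.
SREBF2, chr22:41832925-41833074, plus strand: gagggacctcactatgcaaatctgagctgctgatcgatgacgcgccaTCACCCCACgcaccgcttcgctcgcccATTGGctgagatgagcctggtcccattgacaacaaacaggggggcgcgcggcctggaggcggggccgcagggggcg
INSIG1, chr7:155297698-155297775, plus strand: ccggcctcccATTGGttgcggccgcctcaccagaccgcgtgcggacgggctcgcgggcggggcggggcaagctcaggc
HMGCS1, chr5:43313513-43313592, minus strand: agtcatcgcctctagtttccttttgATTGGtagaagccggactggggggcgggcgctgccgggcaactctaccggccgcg
LSS, chr21:46228825-46228954, minus strand: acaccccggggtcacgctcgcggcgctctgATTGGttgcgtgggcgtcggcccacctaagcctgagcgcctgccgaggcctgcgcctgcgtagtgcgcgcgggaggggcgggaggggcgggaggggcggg
DHCR7, chr11:71448436-71448573, minus strand: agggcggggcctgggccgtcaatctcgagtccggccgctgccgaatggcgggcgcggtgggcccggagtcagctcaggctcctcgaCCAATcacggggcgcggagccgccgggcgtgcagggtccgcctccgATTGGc
In SREBF2 the sterol element began 133 bases before the start and the CCAAT box 106 bases before it. INSIG1, HMGCS1 and LSS each carried a CCAAT box in the printed stretch, beginning 170, 155 and 150 bases before the start, and DHCR7 carried 1 on each strand.

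Among the 5 libraries of the comparison the sterol genes were high in eGFP replicate 1, and 2 of 8, FDFT1 and DHCR7, were lower in both GIRK1 libraries than in both eGFP libraries, an order that 24.8% of all genes tested showed. All 8 members were highest in eGFP replicate 1 among the 5 libraries, a position that 26.0% of the 11779 genes tested took. INSIG1, HMGCS1, IDI1, SQLE, LSS and DHCR7 stood at least 2-fold above each of the other 4 libraries there, against 3.45% of all genes. In eGFP replicate 2, wt replicate 2 and both GIRK1 libraries the same genes lay close together, with a highest-to-lowest ratio of 1.22 (SREBF2) to 2.60 (LSS). The genes are taken in turn below, the regulators first and the enzymes in the order of the pathway. Gene positions are those of GENCODE release 29 (GRCh38), matched by symbol, and amplicon positions are counted on the transcript named. Each gene was read on a single amplicon, so levels are not compared between genes.

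**Figure D1:**
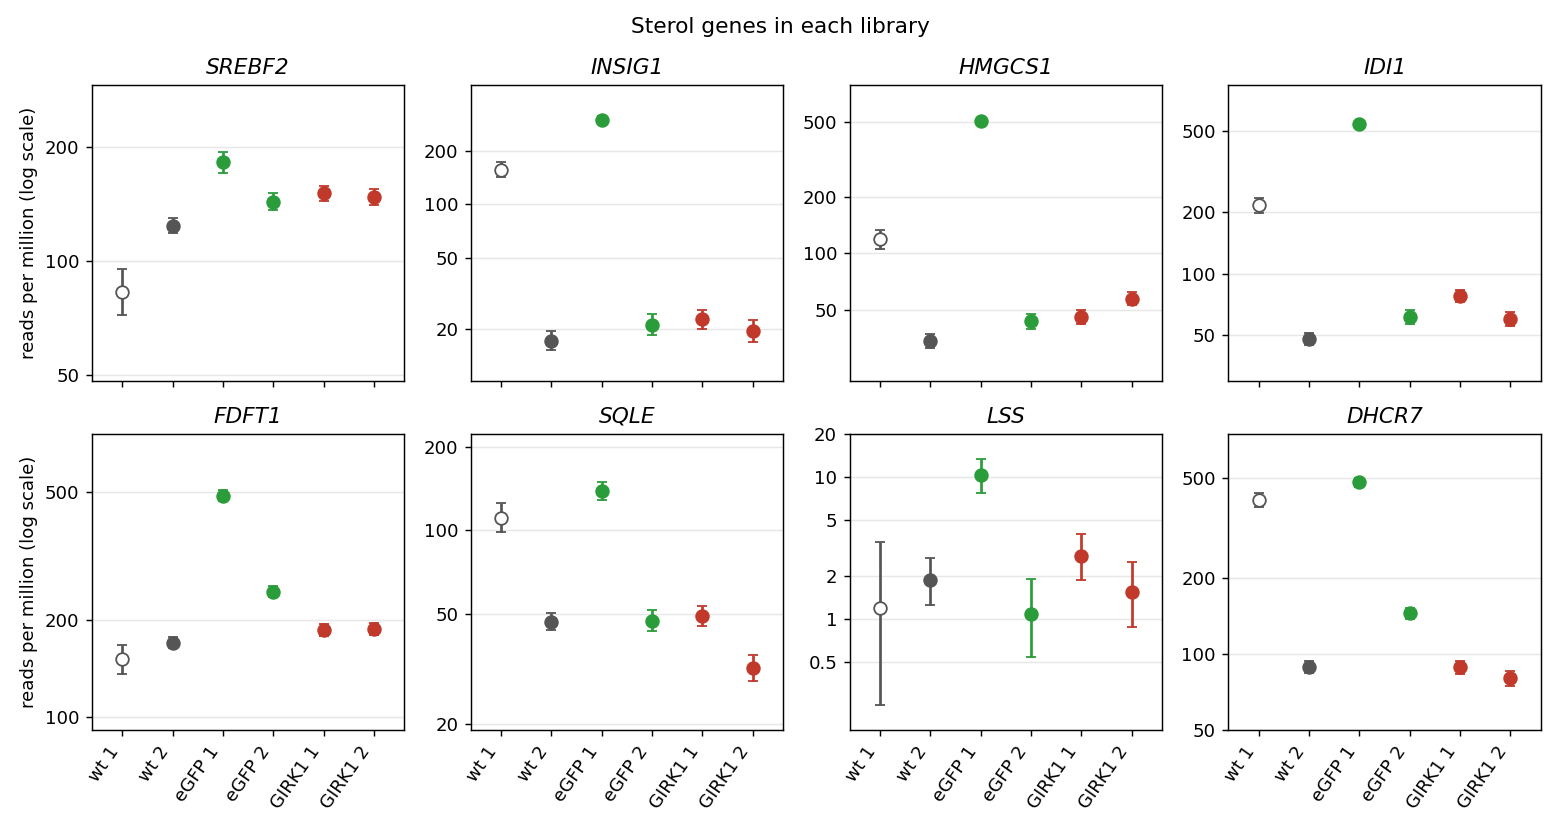
Level of each of the 8 sterol genes in RPM (log scale, a separate range for each panel) in the 6 libraries. Points are single libraries, bars are exact 95% counting intervals, and the open point is the library labelled wt replicate 1. In every panel eGFP replicate 1 is the highest of the 5 filled points, and eGFP replicate 2 lies with wt replicate 2 and the GIRK1 libraries for most genes.

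SREBF2 (chr22:41833079-41907308, plus strand; amplicon 612 to 717 of NM_004599) encodes SREBP2 itself. It was read at 182 RPM in eGFP replicate 1 and 143.4 RPM in eGFP replicate 2, 151 and 148 RPM in the GIRK1 libraries and 124 RPM in wt replicate 2. The GIRK1 libraries fell between the eGFP libraries, so the groups overlapped. The mean was 163 ± 27.5 RPM in eGFP and 149 ± 2.14 RPM in GIRK1 (SD, n = 2), and the log2 fold change of -0.17 ± 0.23 (SE) had an adjusted p of 0.713 (edgeR quasi-likelihood test, Benjamini-Hochberg, as for all adjusted p-values below unless another tool is named). eGFP replicate 1 stood 1.27-fold above eGFP replicate 2, the smallest such ratio among the members.

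INSIG1 (chr7:155297776-155310235, plus strand; amplicon 569 to 672 of NM_005542) encodes the membrane protein that retains the SREBP precursor when sterols are abundant, and is itself a sensitive SREBP target. It was read at 296 RPM (1518 reads, 95% interval 281 to 311) in eGFP replicate 1 and at 21.2 RPM (217 reads, 18.5 to 24.2) in eGFP replicate 2. The GIRK1 libraries held 22.7 and 19.6 RPM and wt replicate 2 held 17.3 RPM. A single library of these 5 was high, 14.0-fold above the other of its own group, and the GIRK1 libraries lay on either side of eGFP replicate 2. The fitted log2 fold change of -2.99 ± 1.03 (SE) between GIRK1 and eGFP had an adjusted p of 0.194. Reads covering the amplicon from end to end made up only 28.2 to 45.5% of the reads of INSIG1, and the log2 fold change on those reads alone was -3.33.

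HMGCS1 (chr5:43289395-43313512, minus strand; amplicon 1560 to 1665 of NM_002130) encodes the synthase that makes HMG-CoA at the entry of the mevalonate route. It was read at 506 RPM (2595 reads, 95% interval 487 to 526) in eGFP replicate 1 and 43.5 RPM (445 reads, 39.5 to 47.7) in eGFP replicate 2. The GIRK1 libraries held 45.8 and 57.3 RPM and wt replicate 2 held 34.0 RPM. Both GIRK1 libraries were above eGFP replicate 2 and wt replicate 2 and far below eGFP replicate 1. The fitted log2 fold change against eGFP was -2.50 ± 0.96 (SE), with an adjusted p of 0.230.

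IDI1 (chr10:1039152-1049170, minus strand; amplicon 600 to 706 of NM_004508) encodes the isomerase that interconverts the isoprenoid diphosphate building blocks. The eGFP libraries held 537 and 61.3 RPM, the GIRK1 libraries 77.4 and 60.0 RPM and wt replicate 2 48.0 RPM. As for HMGCS1, only eGFP replicate 1 was high among these 5 libraries, 8.76-fold above eGFP replicate 2, and the groups overlapped. The log2 fold change against eGFP was -2.21 ± 0.87 (SE), with an adjusted p of 0.237.

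FDFT1 (chr8:11795573-11839309, plus strand; amplicon 783 to 884 of NM_004462) encodes squalene synthase, which commits isoprenoids to sterols. Its level was 489 and 245 RPM in the eGFP libraries, 187 and 188 RPM in the GIRK1 libraries and 170 RPM in wt replicate 2. Both GIRK1 libraries lay below both eGFP libraries, and the 4 libraries other than eGFP replicate 1 spanned 1.44-fold. DHCR7 was the only other member with groups that did not overlap. The log2 fold change of FDFT1 was -1.03 ± 0.36 (SE), with an adjusted p of 0.197.

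SQLE (chr8:124998497-125022283, plus strand; amplicon 1972 to 2072 of NM_003129) encodes squalene epoxidase, a rate-limiting enzyme of the sterol branch. It was read at 138.5 and 47.3 RPM in the eGFP libraries, 49.2 and 31.9 RPM in the GIRK1 libraries and 46.9 RPM in wt replicate 2. GIRK1 replicate 2 was the lowest library and GIRK1 replicate 1 lay above eGFP replicate 2. The log2 fold change was -1.26 ± 0.51 (SE), with an adjusted p of 0.251.

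LSS (chr21:46188141-46228824, minus strand; amplicon 2259 to 2362 of NM_001001438) encodes lanosterol synthase, which folds the squalene epoxide made by SQLE into the first sterol. Its amplicon was barely read, with 53 and 11 reads in the eGFP libraries (10.3 and 1.07 RPM), 31 and 16 reads in the GIRK1 libraries (2.79 and 1.55 RPM) and 30 reads (1.87 RPM) in wt replicate 2. The 95% interval of eGFP replicate 1 (7.74 to 13.5 RPM) lay above those of the other 4 libraries, and eGFP replicate 2 was the lowest of the 5. The log2 fold change of -1.39 ± 0.97 (SE) had an adjusted p of 0.469.

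DHCR7 (chr11:71428193-71452868, minus strand; amplicon 167 to 271 of NM_001360) encodes the reductase of the last step to cholesterol. In RPM it stood at 483 and 145 in the eGFP libraries, 88.3 and 80.0 in the GIRK1 libraries and 88.6 in wt replicate 2. Both GIRK1 libraries were below both eGFP libraries, and they were also just below wt replicate 2. The mean was 314 ± 239 RPM in eGFP and 84.2 ± 5.86 RPM in GIRK1 (SD, n = 2), with a log2 fold change of -1.97 ± 0.54 (SE) and an adjusted p of 0.133, the smallest among the members.

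In the comparison of GIRK1 with eGFP, 0 of 8 members passed an adjusted p of 0.05, against 1.6% of all genes tested (188 of 11779, of which 99, or 0.84%, were lower in GIRK1). At an unadjusted p below 0.05, 6 of 8 members were lower in GIRK1 (all but SREBF2 and LSS), against 10.7% of all genes, with 8.13% higher. With DESeq2, 1 member passed the adjusted threshold, DHCR7, where 3.82% of all genes were called lower. Without the filter on low counts, 4 of 8 passed in edgeR (INSIG1, HMGCS1, IDI1 and DHCR7), where 3.63% of all genes were called lower. The median log2 fold change over the members was -1.68, against 0.016 over all genes tested. The spread behind these values was that of the eGFP group, where the SD exceeded the mean for INSIG1 (159 ± 194 RPM), HMGCS1 (275 ± 327), IDI1 (299 ± 336) and LSS (5.71 ± 6.55). In GIRK1 the same genes were at 21.2 ± 2.17, 51.6 ± 8.12, 68.7 ± 12.3 and 2.17 ± 0.88 RPM (SD, n = 2). The rule in the methods of the study, a 2-fold difference of the mean RPM and a coefficient of variation under 0.7 in each group, took 1 of 8 members as lower, SQLE, whose coefficient in eGFP was 0.694, against 5.32% of all genes. Without the limit on the coefficient it took 6 of 8, against 7.79% of all genes.

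The comparison rested on which eGFP library stood for the control. Against eGFP replicate 1 alone, 7 of 8 members were lower in GIRK1 at the adjusted threshold (all but SREBF2, adjusted p = 0.128), where 13.8% of all genes were, and the median was -2.48. INSIG1 then had a log2 fold change of -3.91 ± 0.19 (SE) and HMGCS1 one of -3.40 ± 0.20. Against eGFP replicate 2 alone the median was 0.046 and 5 members changed direction, with SREBF2 at 0.076, INSIG1 at 0.015, HMGCS1 at 0.27, IDI1 at 0.18 and LSS at 1.03, none past the adjusted threshold. FDFT1 was at -0.37 ± 0.18 and SQLE at -0.21 ± 0.24 without passing it. DHCR7 alone passed, at -0.77 ± 0.18 (SE) with an adjusted p of 0.0172, where 4.65% of all genes were called lower. In both of these fits the lone eGFP library is assumed to vary like the GIRK1 pair, the only replicates left, whose biological coefficient of variation was 0.145 against 0.294 for the eGFP pair.

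**Figure D2:**
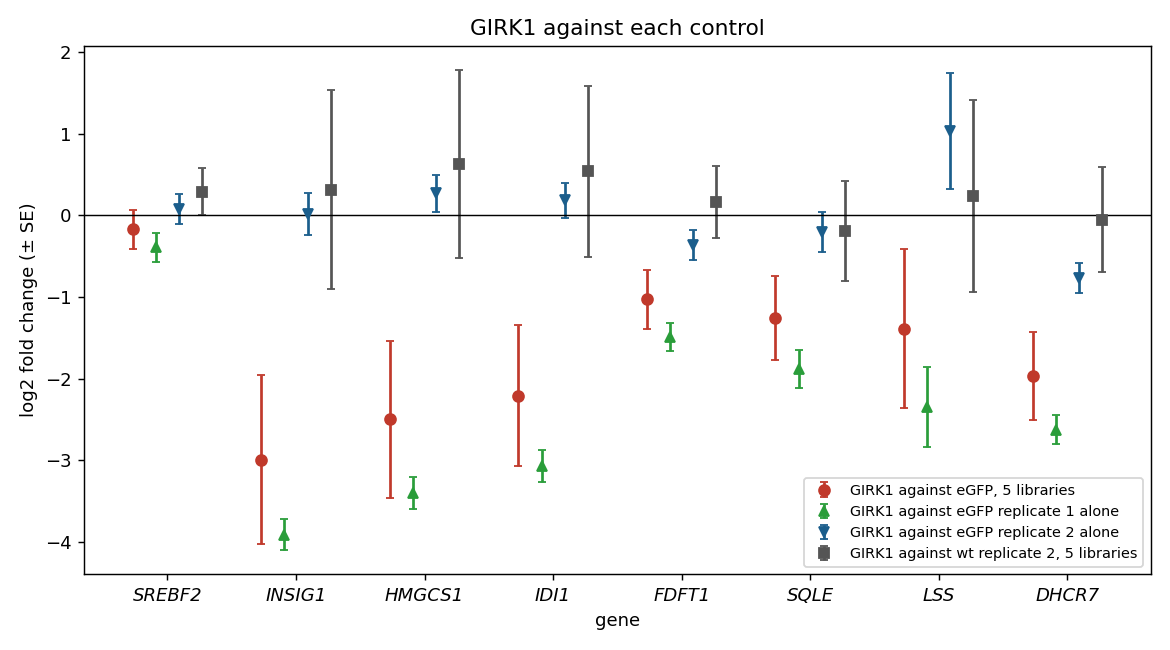
Log2 fold change of GIRK1 for each sterol gene (vertical axis, bars are SE) against both eGFP libraries, against each eGFP library alone and against wt replicate 2. The values against eGFP replicate 1 alone run from -3.91 to -0.39, while those against eGFP replicate 2 alone and wt replicate 2 lie on both sides of 0.

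Against wt replicate 2, the other control, no sterol gene passed the test in GIRK1, and the members lay on both sides of 0. The log2 fold changes ran from -0.19 (SQLE) to 0.62 (HMGCS1) with a median of 0.26, and 6 of 8 were above 0. INSIG1 was at 0.31 ± 1.21, IDI1 at 0.54 ± 1.04, SREBF2 at 0.29 ± 0.29 and DHCR7 at -0.054 ± 0.64 (SE). With edgeR, 0 of 8 members passed the adjusted threshold (adjusted p from 0.892 to 0.994) or the unadjusted one, against 0.229% and 7.38% of all genes. With DESeq2, 0 of 8 passed the adjusted threshold. Standard errors reached 1.21, so these p-values do not show that the levels are alike, and wt replicate 2 is a single library assumed to vary like the other groups.

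The controls were compared with each other in the same fit. All 8 members had a higher fitted level in eGFP than in wt replicate 2, the median log2 fold change being 1.77, and INSIG1 was at 3.30 ± 1.40 (SE). With edgeR, 0 of 8 passed the adjusted threshold, as did 0 of all genes, and 3 of 8 (HMGCS1, FDFT1 and DHCR7) were higher at an unadjusted p below 0.05, against 2.15% of all genes. With DESeq2, 5 of all genes passed the adjusted threshold. eGFP replicate 1 was at least 2-fold above wt replicate 2 in RPM for 7 of 8 members (all but SREBF2), as were 8.25% of all genes, a comparison of single libraries with no test. eGFP replicate 2 was within 2-fold of wt replicate 2 for all 8 members, and 6.41% of all genes lay outside that range. These comparisons share libraries and are not separate evidence.

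By library, the median log2 ratio over the 8 genes was -2.17 and -2.67 for the GIRK1 libraries to eGFP replicate 1, and 0.074 and -0.071 to eGFP replicate 2. It was 0.34 and 0.16 to wt replicate 2. eGFP replicate 1 stood 2.43 above eGFP replicate 2 and 2.46 above wt replicate 2 on the same scale, and eGFP replicate 2 stood 0.32 above wt replicate 2. Summed over the members, the level was 2642 RPM in eGFP replicate 1 and 531 to 708 RPM in the other 4 libraries.

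eGFP replicate 1 also differed from the other 4 libraries in depth and in some of the markers. It was the shallowest of the 5 libraries, and its 7 basal markers summed to 14353 RPM against 7871 to 10183 RPM in the other 4. Of these markers 4 were highest there (KRT5, KRT14, CAV1 and VIM), with KRT5 at 10660 RPM against 3862 to 5741 RPM, and 2 were lowest, EGFR at 385 RPM against 484 to 551 RPM and KRT17 at 853 RPM against 952 to 4513 RPM. Its 7 luminal markers summed to 145 RPM against 450 to 554 RPM, most of it from XBP1, at 125 RPM against 431 to 532 RPM. FOXA1 was also lowest there, at 1.95 RPM against 2.79 to 7.35 RPM. GATA3 was at 17.7 RPM, within the range of 13.1 to 19.2 RPM. ESR1, TFF1, PGR and KRT19, defining luminal markers, were at 0 in each of the 5. Reads covering their amplicon made up 93.0% of its reads, within the range of 92.8 to 94.0% of the other 4. In RNA from whole cultures, a change in the level per cell and a change in the share of cells cannot be told apart. The part of depth and of the marker levels in the sterol result was not tested. The names of the deposited data give the GIRK1 libraries a tag that the other 4 libraries lack, and whatever it marks cannot be told apart from the condition.

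The other genes of the pathway are given by their role, each count beside the share of all genes tested, which was 10.7% lower and 8.13% higher in GIRK1 at an unadjusted p below 0.05 and 26.0% highest in eGFP replicate 1. The 7 further mevalonate and isoprenoid enzymes had a median log2 fold change of -1.03 between GIRK1 and eGFP, with 4 of 7 lower at an unadjusted p below 0.05, and 5 of 7 were highest in eGFP replicate 1. Of 9 enzymes after squalene, 2 were lower at that p, the median was -1.14, and 7 were highest in eGFP replicate 1. Of 6 tested genes (of 7) of uptake and other SREBP2 targets, 3 were lower and 5 were highest in that library. The median of the 6 was -0.96. Of 9 genes of SREBP processing and sterol sensing, 0 were highest there, 1 was higher in GIRK1 at that p, and their median was 0.19. The difference between lists was not tested. With edgeR on the 5 libraries, 0 genes of these lists passed the adjusted threshold, where 1.6% of all genes did.

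MVD, which decarboxylates mevalonate diphosphate, was read at 386 and 46.7 RPM in the eGFP libraries, 25.9 and 27.0 RPM in the GIRK1 libraries and 26.6 RPM in wt replicate 2. ACAT2, the cytosolic thiolase that supplies HMGCS1, was at 441 and 107 RPM in eGFP, 42.5 and 35.3 RPM in GIRK1 and 79.1 RPM in wt replicate 2. FDPS, which makes farnesyl diphosphate, was at 729 and 158 RPM in eGFP, 78.0 and 84.3 RPM in GIRK1 and 101 RPM in wt replicate 2. Unlike most members, these 3 enzymes had both GIRK1 libraries below both eGFP libraries, an order that 24.8% of all genes tested showed. Their adjusted p-values were 0.141, 0.0867 and 0.122. Against eGFP replicate 2 alone their log2 fold changes were -0.80, -1.44 and -0.94. Among the enzymes after squalene, EBP, the sterol isomerase, had a log2 fold change of -1.63 (adjusted p = 0.150), NSDHL, a sterol dehydrogenase, one of -1.60 (0.302) and TM7SF2, a sterol reductase, one of -1.32 (0.151).

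Among the genes of uptake and other SREBP2 targets, TMEM97 encodes a membrane protein that binds the lysosomal cholesterol exporter NPC1. It had a log2 fold change of -1.95 (adjusted p = 0.227). NPC2, the soluble cholesterol carrier of lysosomes, was at -1.18 (0.104) and STARD4, a cytosolic sterol carrier, at -1.02 (0.312). Against eGFP replicate 2 alone, NPC2 was lower (-0.79, adjusted p = 0.0181), while TMEM97 and STARD4 were at -0.088 and 0.028. Of the processing genes, RNF139, a ubiquitin ligase of the endoplasmic reticulum, showed a fitted log2 difference between GIRK1 and both eGFP libraries of 0.72 (adjusted p = 0.141), and MBTPS2, a protease that releases SREBPs, showed one of -0.30 (0.549).

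**Figure D3:**
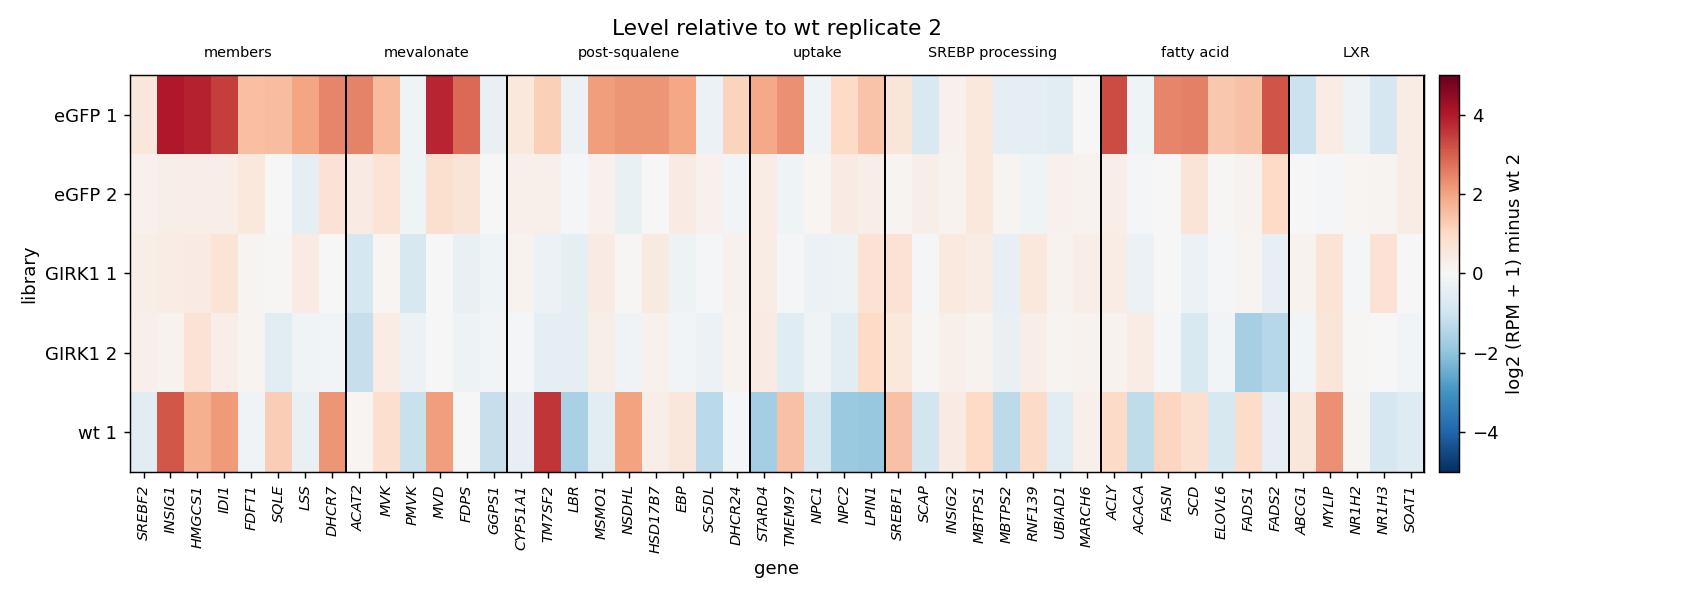
Level of the sterol genes and of further pathway genes tested (columns, grouped by list) in 5 libraries (rows), as log2 (RPM + 1) minus the same value in wt replicate 2 (colour). The top row, eGFP replicate 1, is raised at least 2-fold for 7 of 8 members (all but SREBF2), for 6 of 7 fatty acid genes and for no SREBP processing gene shown. In RPM, SREBF2 was raised 1.47-fold, and the highest processing gene shown, SREBF1, was raised 1.55-fold.

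Fatty acid genes, which SREBP1 controls, were also high in eGFP replicate 1. Of 7 tested (of 8), 5 were lower in GIRK1 at an unadjusted p below 0.05, against 10.7% of all genes, and the median log2 fold change was -1.79. In eGFP replicate 1, 6 of 7 were at least 2-fold above each of the other 4 libraries, against 3.45% of all genes. ACLY, which makes cytosolic acetyl-CoA, was at 936 and 121 RPM in eGFP, 123 and 109 RPM in GIRK1 and 95.7 RPM in wt replicate 2. SCD, the stearoyl-CoA desaturase, was at 2777 and 762 RPM in eGFP, 400.1 and 288 RPM in GIRK1 and 490 RPM in wt replicate 2. FADS2, a desaturase of polyunsaturated fatty acids, was at 404 and 89.7 RPM in eGFP, 33.6 and 15.8 RPM in GIRK1 and 44.6 RPM in wt replicate 2. SCD and FADS2 were below both eGFP libraries in both GIRK1 libraries, as were 24.8% of all genes tested, whereas ACLY was not. Against eGFP replicate 2 alone, FADS2 was lower (log2 fold change -1.84, adjusted p = 0.000821), as was SCD (-1.13, adjusted p = 0.00289). Of 9 genes of cholesterol efflux, esterification and oxysterols, 5 were tested, 1 was lower at an unadjusted p below 0.05, against the same 10.7%, and the median was 0.58. MYLIP, a ubiquitin ligase, NR1H3, the receptor LXR alpha, and ABCG1, a cholesterol exporter, were at 0.93, 0.76 and 0.58, with adjusted p-values from 0.452 to 0.656 and levels under 10 RPM.

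The members varied together over the 5 libraries. Each member's standardised log2 level correlated with the mean of the other 7 at a Pearson r of 0.900 (SREBF2) to 0.997 (INSIG1 and IDI1), a description over 5 libraries that 1 library dominates. Among 9281 other genes that averaged 50 or more reads, the 5 most like the mean of the members were CD9, ACLY, EHD1, RXRA and BNIP3, with r from 0.998 to 0.999. TM7SF2, at an r of 0.905, stood only at place 679 of this order. Many genes outside the members thus reached an r of 0.900 or more. CD9, a membrane tetraspanin, was at 263 RPM in eGFP replicate 1 and 79.2 to 98.3 RPM in the other 4 libraries. EHD1, which acts in endocytic recycling, was at 71.6 RPM against 21.4 to 26.1 RPM. RXRA was at 101 RPM against 80.9 to 85.4 RPM, so a high r says nothing of the size of the difference. MSMO1, an enzyme after squalene, stood at place 12 of the same order and was looked up after its values were seen.

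In the library labelled wt replicate 1, 5 of the 8 members were also high. INSIG1 was at 157 RPM against 17.3 RPM in wt replicate 2, a 9.08-fold difference, and DHCR7 was at 411 against 88.6 RPM. HMGCS1 was at 119 RPM, IDI1 at 216 RPM and SQLE at 111 RPM, which were 3.49-fold, 4.50-fold and 2.37-fold above wt replicate 2. SREBF2 (83.0 RPM), FDFT1 (151 RPM) and LSS (1.20 RPM, 3 reads) were below their wt replicate 2 levels. The 5 of 8 members at least 2-fold higher compare with 21.8% of all genes tested, and this library differed from the others in its luminal and basal markers, as given above. The median log2 ratio of the members to wt replicate 2 was 1.53, below that of eGFP replicate 1. The rise did not extend to most other genes of the pathway. At least 2-fold above wt replicate 2 were 1 of 7 further mevalonate and isoprenoid enzymes and 2 of 9 enzymes after squalene. So was 1 of 6 genes of uptake and other SREBP2 targets. At least 2-fold below wt replicate 2 were 2 of 7, 2 of 9 and 3 of 6, against 25.1% of all genes. With both wt libraries in the fit of all 6, 0 of 11546 genes passed the adjusted threshold for GIRK1 against eGFP with edgeR, 606 passed at an unadjusted p below 0.05, and 0 of 8 members passed either. The median of the members was -1.70 in that fit.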

How the data were processed

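Mapping was done by the authors with the Ion Torrent suite (version not given in the sources used here) against the reference AmpliSeq_Transcriptome_21K.v1. For each amplicon the authors deposited raw counts of all reads and of covering reads, and the RPM, which is the count divided by the library total. How reads from near-identical copies were assigned is not given in the sources used here. The 10 spike-in rows held 0 reads and were left out. Groups come from the genotype labels and replicate numbers from the titles. The members, the pathway lists and the exclusion of wt replicate 1 were chosen with earlier results of these data known.

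Counts of 5 libraries in 3 groups were tested with edgeR 4.0.16 (R 4.3.3): TMM normalization, filterByExpr (11779 genes kept, all 8 members among them), the quasi-likelihood test (glmQLFit, glmQLFTest) of group means, and p-values adjusted by Benjamini-Hochberg over all genes tested, with a threshold of 0.05. Standard errors were derived from the F value. All 8 members are named. Of each pathway list the genes past the threshold are named, and where fewer than 3 passed, those with the largest absolute log2 fold change, up to 3. The 5 genes most like the members are those with the highest Pearson r. SC5D was read under its older symbol SC5DL. Some genes of the lists enter the counts and are not reported singly here. Alternatives were other scalings (DESeq2 size factors, upper quartile, library totals), other filters, the DESeq2 1.42.0 Wald test, covering reads only, other sets of libraries, the replicate block and leaving out each replicate. The procedure was tested on simulated data in which no library departed as a whole from its own group. That test therefore does not bear on the difference between the eGFP replicates. Promoters come from RefSeq (GRCh38.p14) and gene positions from GENCODE release 29.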

Additional observations from a re-analysis of the deposited data

Results flagged for a closer look

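The values below come from the library labelled wt replicate 1, which no comparison given first uses, and each lay above the highest control library with exact 95% counting intervals that did not overlap. KCNJ3 was at 19.2 RPM there and at 0 in the control libraries. TM7SF2, a sterol reductase, was at 175 RPM against at most 33.2 RPM, and RNF139, a ubiquitin ligase that acts on sterol-regulated proteins, at 130 RPM against at most 66.3 RPM. MYLIP was at 7.18 RPM against at most 1.17 RPM.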

How the results depend on the processing

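Scaling by DESeq2 size factors, the upper quartile or library totals left 0 of 8 members called in GIRK1 against eGFP, as did covering reads only. Without the filter on low counts 4 members and 865 genes were called, with DESeq2 1 and 677, and with the replicate block 1 and 549. With both eGFP replicates and wt replicate 2 joined as 1 control group, 0 members passed (0 also at an unadjusted p below 0.05, in place of 6), 91 genes were called higher and 47 lower, and the median was -1.27. A minimum of 10 reads in every library gave 107 genes, all 6 libraries 0, and eGFP replicate 2 joined with wt replicate 2, a setting chosen after seeing the data, gave 984 genes and a median of 0.17 over the members. Leaving out 1 replicate gave 0 to 7 members, 158 to 2997 genes and medians from -2.48 to 0.046. eGFP replicate 1 decided the median and the direction: without it 1 member and 973 genes were called and SREBF2, INSIG1, HMGCS1, IDI1 and LSS turned positive. Over the libraries left out, SREBF2 ran from -0.39 to 0.076, INSIG1 from -3.91 to 0.015, HMGCS1 from -3.40 to 0.27, IDI1 from -3.07 to 0.18 and LSS from -2.35 to 1.03. Without eGFP replicate 2, 7 members and 2997 genes were called. Against wt replicate 2, 0 members were called in any setting run, and the median of 0.26 turned to -0.63 with all 6 libraries, where both wt libraries form the group, and to -0.35 with the replicate block. Without a limit on the coefficient of variation, the rule of the study took 6 members in place of 1. Single-member fold changes were also followed, except under the joined control groups and the fit of the GIRK1 and eGFP libraries alone. Of these fold changes, 85 kept direction and side of the threshold, 14 passed it in addition and 5 turned. With eGFP replicate 2 and wt replicate 2 joined, 5 of 8 members were above 0. The replicate numbers do not pair the libraries by the check run: the replicate differences correlated at 0.194 (eGFP and GIRK1), 0.142 (eGFP and wt) and 0.0417 (GIRK1 and wt) over 9212 genes. LSS, with 11 to 53 reads in the 5 libraries, is limited by depth.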
